A study of Drosophila melanogaster with 18 samples.

Results

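Gene expression of w1118 flies, the white-eyed strain commonly used as a laboratory control, was compared in whole animals at the start of adult life and after 2 days on food with an inhibitor of protein translation (PT). The comparison takes 12 of the 18 RNA-seq libraries of the series: 6 from day 0 flies that the labels give no drug, and 6 from day 2 flies that had eaten food with 1 µM cycloheximide (CHX) mixed into it. The flies carried no transgene. By the study's methods they were raised on a cornmeal medium and moved to sugar and yeast food once eclosed, so day 2 flies had spent longer on the latter. The libraries were chosen by their labels and column names. They fall into a name series with a hyphen and one without, each with 3 libraries per group, and the labels do not say what the series mark. The 6 remaining libraries, from day 2 flies on vehicle, entered no test and are given only as levels beside the genes named. The labels do not state whether the libraries stand for separate cultures, nor the sex or the number of flies per library, so p-values measure the spread between these libraries, which may be technical.

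CHX binds the ribosome and blocks the elongation step of PT. In a young female the ovaries mature over the first days of adult life. Nurse cells, which undergo repeated rounds of DNA replication without division, load the oocyte with maternal transcripts, yolk proteins arrive from the fat body and the follicle cells, and the follicle cells then lay down the eggshell. They secrete the vitelline membrane first and the chorion last, after local amplification of the chorion gene clusters on the X chromosome and on 3L. The comparison addresses which transcripts still differed once PT had been inhibited over this period. Age and drug differ together between its groups, so their parts cannot be told apart here. The words "with CHX" below name the day 2 CHX group and not an effect of the drug alone.

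Totals ran from 27180491 to 37879190 counts per library at day 0 and from 24033830 to 38519240 with CHX. Levels are library-scaled counts (CPM, corrected by TMM factors). Mitochondrially encoded transcripts took 18.4% ± 1.1 of the counts at day 0 and 18.9% ± 2.55 with CHX (SD, n = 6 each), a difference smaller than the spread between libraries (2-sided exact permutation test, p = 0.615). No pair of libraries, between groups or within them, agreed within sampling noise. Transcripts of adult muscle, photoreceptors, gut, fat body and ovary were present in both groups, as whole flies would give. The male markers roX1 and roX2 stood at 1.60 and 0.0789 CPM at day 0 and at 1.93 and 0.138 CPM with CHX, and 3 of 17 listed genes of the male accessory gland were high enough to be tested. The summed testis list stood apart in day 0 replicate 1, at 25.9 CPM against 5.39 to 6.67 in the other 5. Day 0 replicate 6 stood apart in eggshell transcripts and CHX replicate 5 in vitelline membrane transcripts, and the results that rest on them are given with and without them. The vehicle libraries held a mean of 3369 CPM over 25 muscle genes, against 87530 at day 0 and 92450 with CHX, although their label is the whole fly. Levels relative to vehicle are therefore given as a description.

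Day 2 flies on CHX and day 0 flies differed in few transcripts, and each of them was lower with CHX. Of 11122 features tested, 81 (0.728%) were lower and 0 were higher with CHX at an adjusted p under 0.05 (edgeR quasi-likelihood test, Benjamini-Hochberg), and 47 (0.423%) were over 2-fold lower. At an unadjusted p under 0.05 there were 204 features on the higher side and 516 on the lower side. DESeq2 placed 7 features on the higher side and limma-voom 0. The median log2 fold change over all features was 0.0020, and 5488 features (49.3%) had a value below 0. The 95% interval of the change lay within 2-fold either way for 10203 features, and for 8157 of the 8234 features with at least 5 CPM. Without day 0 replicate 6 the test called 58 features, without CHX replicate 5 it called 90, and without both it called 69, all lower with CHX. The difference of the change between the name series passed the test for 0 features (edgeR, lowest adjusted p = 0.999), with 210 at an unadjusted p under 0.05. Of the 81 features, 79 were protein-coding genes and 2 were long noncoding RNAs, and of 329 transposon insertions tested 0 passed. A gene on the opposite strand overlapped 22 of the 81, and a gene on the same strand 5, so that their reads may be shared. The first principal component of the 12 libraries, with 38.1% of the variance, did not separate the groups, while the next, with 19.7%, did, from -22.7 to -2.07 at day 0 and from 4.14 to 25.6 with CHX.

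**Figure D1:**
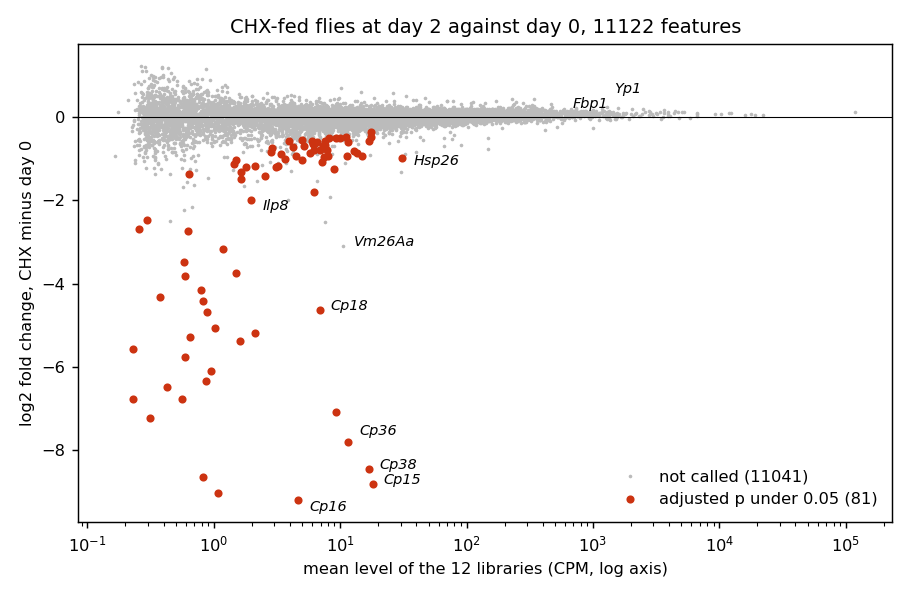
Log2 fold change of CHX against day 0 (vertical axis) plotted against the mean level of the 12 libraries in CPM (horizontal log axis), 1 point per feature, with the 81 features that passed the test in red. The red points lie below 0, from -0.36 to -9.22, and the points at the right end of the axis stay near 0.

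Eggshell genes were strongly lower with CHX, and among features with at least 10 CPM at day 0 the 5 lowest fold changes belonged to chorion genes. Of 22 listed genes 21 could be tested. Of these, 14 were lower with CHX and 0 were higher, where 0.728% of all features were lower. The median log2 fold change over the tested members was -3.74. The count stayed at 14 without day 0 replicate 6. The list was chosen with earlier results of these libraries known. In RNA of whole flies, fewer cells of a type and less RNA per cell cannot be told apart.

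The chorion genes were present at low levels at day 0 and nearly absent with CHX. All 9 listed chorion genes were tested and all 9 were lower with CHX, where 0.728% of all features were lower. Their summed level was 138 ± 38.2 CPM at day 0 and 1.27 ± 0.352 CPM with CHX (mean ± SD, n = 6 each). In the vehicle libraries the sum was 6860 ± 3320 CPM, from 4140 to 11600. The day 0 libraries ran from 107 to 212 CPM and the CHX libraries from 0.795 to 1.77, so that the lowest day 0 library lay far above the highest CHX library.

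The 3L cluster, at 3L:8726791-8732599 (BDGP6.54), holds Cp15, Cp16, Cp18 and Cp19, which encode structural proteins of the chorion. Cp15 had a lowest, median and highest level of 27.5, 32.1 and 59.9 CPM at day 0 and of 0, 0.0872 and 0.132 CPM with CHX. The groups did not overlap, and the CHX libraries together held 13 counts of Cp15 where the day 0 libraries held 7195. Its log2 fold change was -8.84 (SE 0.34, edgeR adjusted p = 7.82e-10), and the ratio of pooled levels was 499, with a 95% exact counting interval of 291 to 937. Cp16 went from 6.86, 8.97 and 13.6 CPM at day 0 to 0, 0 and 0.0454 CPM with CHX. It had 2 counts in all CHX libraries, 1 in each of replicates 1 and 4, against 1839 at day 0, a ratio of 828 with a counting interval of 229 to 6850. Such intervals cover counting error only, since reads without molecular identifiers are not independent molecules. Cp19 was lower by 7.08 and Cp18 by 4.64 on the log2 scale. Cp18 stood higher with CHX than its neighbours, at 0.293, 0.472 and 1.13 CPM (lowest, median, highest). Its highest CHX library was still below its lowest at day 0, 9.92 CPM.

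The X cluster, at X:8470888-8483311, holds Cp7Fa, Cp7Fb, Cp7Fc, Cp36 and Cp38. Cp36 is a major chorion protein, and its level was 18.8, 20.3 and 35.8 CPM (lowest, median, highest) at day 0 and 0.0795, 0.0947 and 0.117 CPM with CHX. The CHX libraries lay close to one another and far below every day 0 library. The log2 fold change of Cp36 was -7.82 (SE 0.23, edgeR adjusted p = 1.35e-10), and that of Cp38 was -8.45 (SE 0.29). The other genes of the cluster were less abundant at day 0 and their changes were smaller. The log2 fold change was -3.74 for Cp7Fa, -3.82 for Cp7Fb and -2.69 for Cp7Fc, and Cp7Fc, with 87 counts at day 0 and 11 with CHX, had the widest error of the cluster (SE 0.43).

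**Figure D2:**
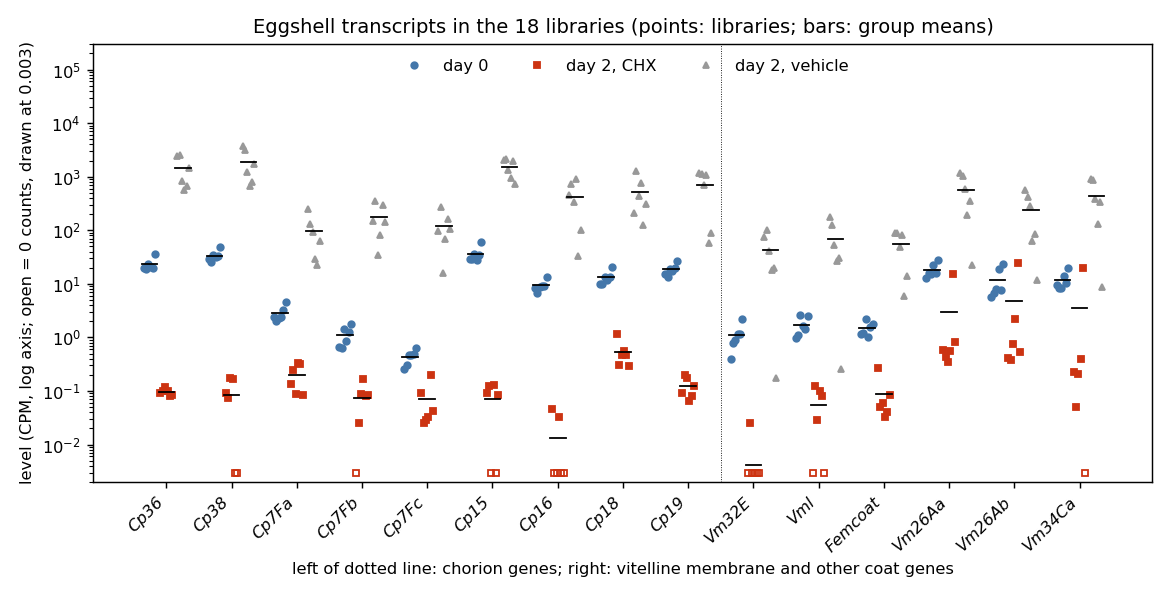
Level in CPM (vertical log axis) of 15 eggshell genes in each library of day 0 (blue), CHX (red) and vehicle (gray), with bars for group means and open symbols for libraries at 0 counts, drawn at 0.003. The red points of the chorion genes lie below the blue points without overlap, whereas 1 red point each of Vm26Aa, Vm26Ab and Vm34Ca lies among the blue points.

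The vitelline membrane genes divided the CHX libraries. Vm32E and Vml, which encode vitelline membrane proteins, were lower with CHX, with log2 fold changes of -6.78 (SE 0.57) and -4.69 (SE 0.48). Vm32E had a single count in the CHX libraries, in replicate 2, against 225 counts at day 0. Vm26Aa, a main structural protein of the membrane, had a lowest, median and highest level of 13.0, 15.8 and 27.4 CPM at day 0. In CHX replicate 5 its level was 15.02 CPM, inside the day 0 range, and in the other 5 CHX libraries it was 0.350 to 0.837 CPM. With all libraries the log2 fold change of Vm26Aa was -3.09 (SE 0.74, edgeR adjusted p = 0.129), and without CHX replicate 5 it was -5.01 (SE 0.19, adjusted p = 4.11e-09). Vm26Ab reached 24.1 CPM in that library, against 0.377 to 2.20 in the other CHX libraries. Vm34Ca reached 19.99 CPM, against 0 to 0.395. Leaving the library out brought Vm26Ab to -3.62 (adjusted p = 0.000127) and Vm34Ca to -5.95 (adjusted p = 9.64e-07), and psd, a further vitelline membrane gene, to an adjusted p of 0.0404. yellow-g2 then missed the threshold (adjusted p = 0.0565), so that 17 eggshell genes passed in place of 14.

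CHX replicate 5 stood apart in the vitelline membrane sum, not in the chorion sum. Its 7 vitelline membrane genes summed to 64.0 CPM, against 2.46 to 4.80 in the other CHX libraries and 32.5 to 81.1 at day 0. Its chorion sum was 1.23 CPM, within the 0.795 to 1.77 of the group. The same library had the highest sum of the yolk proteins with CHX, 9450 CPM against 4650 to 6830, and the highest sum of the Turandot peptides, 297 CPM against 68.1 to 169. Its replication and cell cycle sum, 666 CPM, was also the highest with CHX, where the others lay between 456 and 560. The part of its vitelline membrane transcripts in the other values was not tested.

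**Figure D3:**
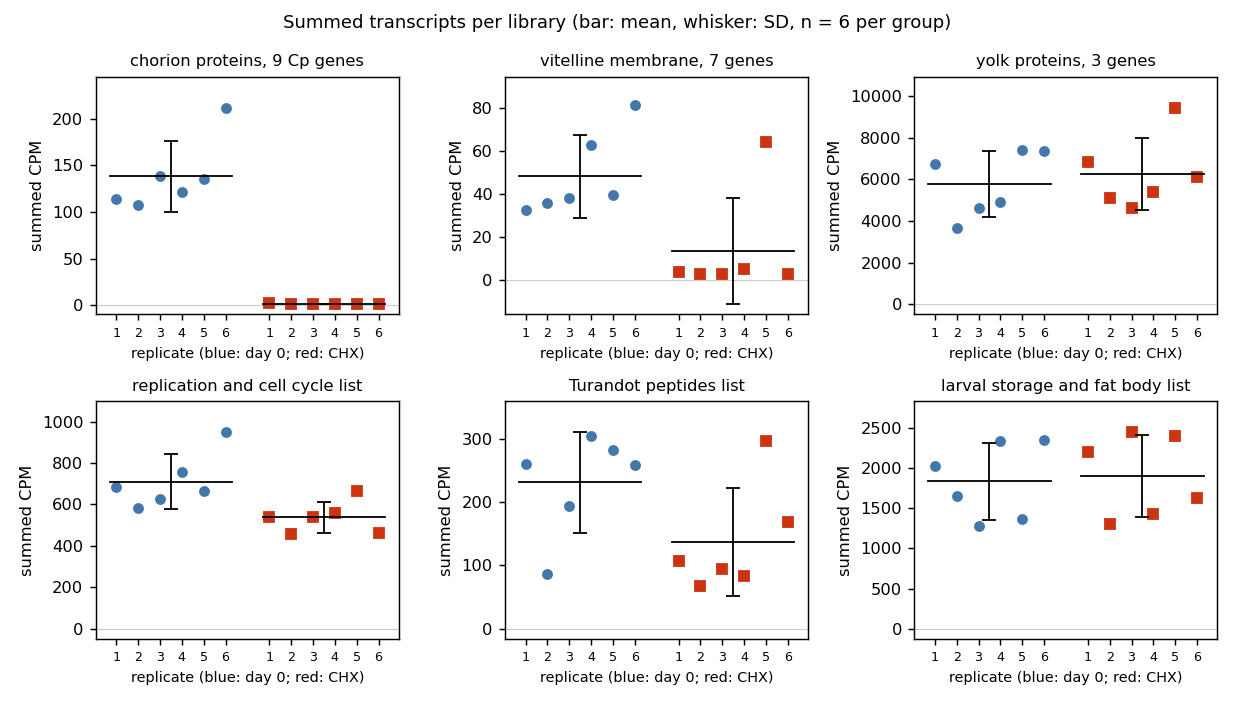
Summed level in CPM (vertical axes) of 6 gene families or lists in each of the 6 day 0 (blue) and 6 CHX (red) libraries, with the group mean as a bar and the SD as a whisker. The chorion sums are 107 to 212 at day 0 and 0.795 to 1.77 with CHX, and the vitelline membrane sum of CHX replicate 5, 64.0, lies within the day 0 range.

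The remaining eggshell genes ranged from clearly lower to alike. Femcoat, a female-specific eggshell component, was lower by 4.15 and dec, which encodes the chorion assembly factor defective chorion, by 1.79 on the log2 scale. dec had a lowest, median and highest level of 2.33, 2.84 and 3.26 CPM with CHX, against 6.86, 8.44 and 14.7 at day 0, without overlap. yellow-g2, a yellow family gene of the follicle cells, had a log2 fold change of -1.497 (SE 0.29, edgeR adjusted p = 0.0230). Its paralogue yellow-g had a log2 fold change of -0.25 (95% interval -0.50 to 0.0013), and Pxt, a peroxidase, one of -0.57 (edgeR adjusted p = 0.395), so neither passed. Cad99C, a cadherin of follicle cell microvilli that many tissues transcribe, was at 54.0 ± 9.81 CPM at day 0 and 54.5 ± 12.3 CPM with CHX (SD, n = 6 each).

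Other transcripts of the same low range were at or near 0 counts with CHX. The following genes lie outside the rule for naming genes and were chosen after their values were seen. CG13084 had 426 counts at day 0 and 0 in the CHX libraries, which makes it at least 128-fold lower when the 6 CHX libraries together are set to 3 counts. CG4009 was at least 98.5-fold, CG31661 at least 37.5-fold and CG15571 at least 27.3-fold lower by the same reckoning. CG31661 overlaps a gene on the opposite strand. Fad2, a fatty acid desaturase, had 833 counts at day 0 and 19 with CHX, with a log2 fold change of -5.19 (SE 0.36), and the mucin Muc12Ea had 372 and 4 counts. In the vehicle libraries the mean levels of these genes were 97.2 CPM for CG13084, 145 for CG4009, 26.8 for CG31661, 17.5 for CG15571, 208 for Fad2 and 75.6 for Muc12Ea. All 6 genes thus had a higher mean in vehicle-fed day 2 flies than at day 0. In total 12 of the 81 features had 5 counts or fewer over the 6 CHX libraries.

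Transcripts of the germline and of the maternal store were mostly lower with CHX by sign. Part of the list passed the test, by smaller folds. Of 31 listed genes, all tested, 6 were lower with CHX and 0 higher, where 0.728% of all features were lower. The median log2 fold change was -0.308, and 29 of the 31 had a value below 0, against 49.3% of all features. Those that passed were mtrm, nanos, CycB3, bcd, krimp and AGO3. CycB3, a B-type cyclin of female meiosis, was at 12.7, 13.6 and 21.4 CPM (lowest, median, highest) at day 0 and at 6.23, 7.74 and 10.3 CPM with CHX. Its groups did not overlap, and its log2 fold change was -0.93 (SE 0.13, edgeR adjusted p = 0.00134). nanos, which encodes a translational repressor needed for the abdomen of the embryo and for germ cells, had 8.91, 9.21 and 16.1 CPM at day 0 and 3.26, 5.26 and 8.55 CPM with CHX. It was lower by 0.94 (SE 0.19, adjusted p = 0.0339), without overlap, and 2 genes on the other strand overlap its exons. mtrm, matrimony, an inhibitor of Polo kinase in the oocyte, was lower by 0.94 (SE 0.17), with libraries that overlapped. bcd, the anterior determinant of the embryo, was lower by 0.83 (SE 0.15), and krimp and AGO3, which act in the piRNA pathway that silences transposons, by 0.69 (SE 0.11) and 0.36 (SE 0.07).

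The germline count rested in part on day 0 replicate 6. Without that library 2 of the 31 genes passed, and mtrm (adjusted p = 0.0599), nanos (0.105) and bcd (0.0529) were no longer among them. Without CHX replicate 2 or without CHX replicate 4 the count was 3, and without both day 0 replicate 6 and CHX replicate 5 it was 5. Within the hyphen series alone, and within the other series alone, 0 of the 31 passed, with 3 libraries per group. Other known germline genes did not pass. vas, the germline RNA helicase, had a log2 fold change of -0.08 (95% interval -0.33 to 0.18), bam, which starts cyst differentiation, one of -0.29 (-0.61 to 0.037), and osk, the organizer of germ plasm, one of -0.15 (-0.71 to 0.41). Their libraries overlapped widely, for vas from 31.5 to 71.1 CPM at day 0 and from 38.8 to 55.7 CPM with CHX.

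The replication and cell cycle list shifted as a whole by sign. All 27 listed genes were tested and had fold changes below 0, against 49.3% of all features, with a median of -0.438. The test was passed by 6 of them, all lower, where 0.728% of all features were lower. Orc1, the largest subunit of the origin recognition complex, was at 8.58, 9.02 and 13.5 CPM (lowest, median, highest) at day 0 and at 3.47, 4.70 and 5.45 CPM with CHX. The lowest day 0 library was above the highest CHX library, and the log2 fold change was -1.08 (SE 0.14, edgeR adjusted p = 0.000616). twe, twine, the Cdc25 phosphatase of meiosis, was lower by 1.00 (SE 0.18), with 4.40 CPM as the median at day 0 and 2.48 CPM with CHX. CycE, cyclin E, which drives entry into S phase and the endocycle, was lower by 0.81 (SE 0.13), at 14.2 to 22.4 CPM at day 0 and 7.45 to 11.5 CPM with CHX. dup, the replication licensing factor Cdt1, was lower by 0.58 (SE 0.10), fzy, the Cdc20 activator of the anaphase-promoting complex, by 0.56 (SE 0.11), and Mcm5, a subunit of the replicative helicase, by 0.48 (SE 0.085). None of these 6 genes overlapped between groups, which also held for 69 of the 81 features that passed. Over all features 0.953% were lower without overlap. For Orc1, twe, CycE, dup and fzy, exons overlap at least 1 gene of the other strand. Leaving out single libraries gave 5 to 8 genes of the list, and 5 without day 0 replicate 6, which had the highest sum of the list, 950 CPM against 582 to 756 in the other day 0 libraries. Without both day 0 replicate 6 and CHX replicate 5 the count was 5, and Mcm5 was no longer past the threshold (-0.43, adjusted p = 0.0552).

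Genes outside the lists passed as well. By the rule for naming genes these included Gcna, a germ cell nuclear protein, which was lower by 0.86 (SE 0.11), tum, a centralspindlin subunit of cytokinesis, by 0.59 (SE 0.092), and Msh6, a mismatch repair protein, by 0.51 (SE 0.11). Without day 0 replicate 6, Msh6 had a log2 fold change of -0.43 (edgeR adjusted p = 0.146), and without CHX replicate 5 as well one of -0.44 (adjusted p = 0.187). Chosen after their values were seen, pim (securin, -1.21), thr (separase, -1.18), borr (borealin, -0.86), Incenp (-0.48), BubR1 (-0.56), cid (the centromeric histone H3 variant, -1.03), the kinesins Klp67A (-0.70) and Klp3A (-0.50), and zld (the activator of the zygotic genome, -0.96) also passed. The libraries of cid, zld, Incenp and Klp3A overlapped between groups, and exons of thr and Klp67A overlap a gene on the other strand. pim was at 3.43, 4.12 and 5.62 CPM (lowest, median, highest) at day 0 and at 1.51, 1.84 and 2.36 CPM with CHX, without overlap. Since these genes were picked among those that passed, no count of such a group is given. In total 29 of the 81 features were members of a list and 52 were not.

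In 3 other lists 1 gene each was lower, and a count of 1 is read here as a result on that gene and not on its list, since 0.728% of all features were lower. Ilp8, the relaxin-like peptide that is known from growth coordination in larvae and from ovulation, was at 2.63, 2.99 and 4.39 CPM (lowest, median, highest) at day 0 and at 0.527, 0.830 and 0.963 CPM with CHX. The groups were far apart, and the log2 fold change was -1.98 (SE 0.19, edgeR adjusted p = 4.17e-05), while the other 17 tested genes of the insulin list did not pass. Ilp8 overlaps a gene on each strand. Hsp26, a small heat shock protein that nurse cells also transcribe during oogenesis, was at 33.7, 39.8 and 56.0 CPM at day 0 and at 14.7, 20.9 and 29.5 CPM with CHX. It was lower by 0.97 on the log2 scale (SE 0.17, edgeR adjusted p = 0.0107), without overlap, and 1 of 13 tested heat shock genes passed. Hsp27, likewise transcribed in the ovary, had a log2 fold change of -0.52 (adjusted p = 0.0761). Hsp23 and Hsp68 had values of 0.016 (95% interval -0.38 to 0.42) and -0.089 (-0.44 to 0.26). Hsp22 was assigned 0 counts in all 18 libraries and could not be tested. This is not read as absence of its transcript, since the settings of read assignment were not fully stated. Of 73 tested cytochrome P450 genes 1 passed, Cyp6a19, at 9.69, 10.9 and 19.2 CPM at day 0 and at 3.92, 4.59 and 7.75 CPM with CHX. Its log2 fold change was -1.24 (SE 0.17, adjusted p = 0.00134), and it overlaps a gene on the other strand.

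All 81 features that differed had a higher mean in vehicle-fed day 2 flies than at day 0, by 5.4 to 271 times with a median of 15.6. The share of all tested features with a higher vehicle mean was not counted, so the count is given as a description. The difference in level between day 0 and CHX was small beside the level of the vehicle libraries. Day 0 minus CHX came to 0.311% to 5.39% of the vehicle mean, with a median of 3.32%. For the 14 eggshell genes it was 0.311% to 2.71%, and for the 12 genes of the germline and cell cycle lists 2.6% to 4.79%. For Cp15 it was 2.35% and for Cp38 1.79% of the vehicle mean. Cp7Fb and Cp7Fc lay below the other chorion genes, at 0.583% and 0.311%. How much of these low day 0 levels came from the day 0 flies themselves was not tested. For part of the genes the vehicle mean covers a wide spread. Vm32E ran from 0.177 to 101 CPM and Vml from 0.253 to 174 CPM with vehicle. Their lowest day 0 libraries, at 0.402 and 0.988 CPM, lay above the lowest vehicle library. Cp15 ran from 733 to 2111 CPM with vehicle, above all its day 0 libraries.

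Features were also divided by how the vehicle mean stood to the mean of day 0 and CHX. The higher of these means had to be at least 20 CPM. Features far higher with vehicle could meet this through vehicle alone. Cp7Fc did so, with 0.439 CPM at day 0, 0.0698 with CHX and 119 with vehicle. That class is therefore not one of well-expressed features at day 0 or with CHX. Over all 11122 features tested, 49.3% were lower by sign and 0.728% passed the test. Of 153 features with vehicle at least 10 times higher, 151 were lower with CHX than at day 0 by sign and 69 (45.1%) passed the test, with a median log2 fold change of -0.782. Of 208 features with vehicle at most 0.1 times as high, 29 were lower by sign and 0 passed, with a median of 0.104. Of 2121 features with vehicle within 1.5 times, 903 were lower by sign and 0 passed, with a median of 0.0159. The vehicle libraries had no part in the test of CHX against day 0. The day 0 and CHX libraries form part of the ratio that sorted the features, so no test is given between the classes.

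**Figure D4:**
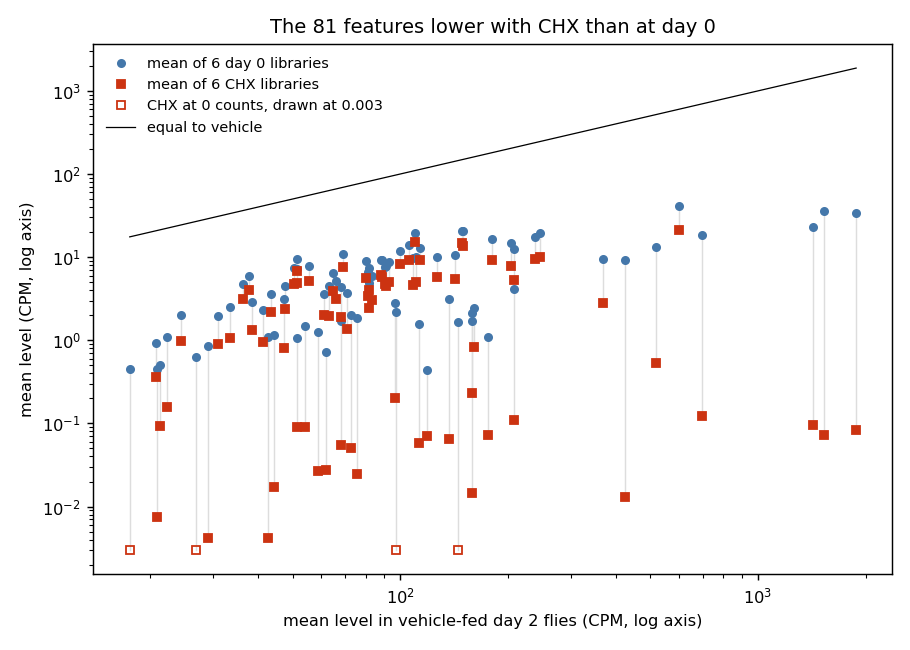
Mean level in CPM (vertical log axis) at day 0 (blue) and with CHX (red) of the 81 features that were lower with CHX, against their mean level in vehicle-fed day 2 flies (horizontal log axis), with open symbols for 0 counts with CHX, drawn at 0.003. Every blue point lies below the line of equality with vehicle, and each red point below its blue one.

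Yolk protein transcripts did not differ from day 0 beyond the error of the comparison. Yp1 was at 699, 1248 and 1512 CPM (lowest, median, highest) at day 0 and at 964, 1337 and 2150 CPM with CHX, and Yp2 at 2402, 3276 and 3941 against 2925, 3183 and 4694 CPM. The libraries overlapped, with log2 fold changes of 0.24 (95% interval -0.17 to 0.65) for Yp1, 0.11 (-0.21 to 0.44) for Yp2 and -0.025 (-0.53 to 0.48) for Yp3. In vehicle flies the means were 2780 CPM for Yp1 and 5120 CPM for Yp2. The yolk receptor yl of the oocyte had a value of -0.15 (-0.54 to 0.23), and apolpp, the lipid carrier of the hemolymph, one of -0.27 (-0.73 to 0.19).

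Transcripts of the larval fat body stood close to their day 0 levels after 2 days of CHX. All 6 listed genes of the larval fat body had 95% intervals within 2-fold either way, with a median log2 fold change of 0.0724. Fbp1, a receptor for larval storage proteins, was at 415, 579 and 785 CPM (lowest, median, highest) at day 0 and at 423, 599 and 924 CPM with CHX, and at a mean of 0.0370 CPM with vehicle. Lsp1alpha, a storage hexamerin, was at 122, 192 and 261 CPM at day 0 and at 132, 196 and 286 CPM with CHX, and at a mean of 0.0147 CPM with vehicle. The day 0 and CHX libraries overlapped throughout, and both lay far above the vehicle libraries. Fbp2 had a log2 fold change of 0.13, Lsp1beta 0.033, Lsp1gamma -0.066 and Lsp2 0.19, none of which passed.

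Tissue transcripts of muscle, and most of those listed for neurons and photoreceptors, were alike within narrow limits. All 25 tested muscle genes had 95% intervals within ±0.5 on the log2 scale, with a median of 0.0840. Mhc, the muscle myosin heavy chain, had a log2 fold change of 0.057 (-0.14 to 0.25), Mlc2 one of 0.063 (-0.084 to 0.21) and Strn-Mlck, a myosin light chain kinase, one of 0.036 (-0.17 to 0.25). Of 21 tested neuron and photoreceptor genes, 18 had 95% intervals within ±0.5 and all 21 within 2-fold either way. ninaE, the main rhodopsin of the eye, had a value of 0.039 (-0.13 to 0.21), and Pdh, a dehydrogenase of the pigment cells in the retina, one of 0.092 (-0.15 to 0.33).

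The transcripts of the PT machinery, the target of CHX, did not pass the test in either direction. Of 84 tested cytosolic ribosomal protein genes 0 passed, with a median log2 fold change of 0.0977, and 82 had 95% intervals within 2-fold either way. By sign, 1 of the 84 lay below 0, where 49.3% of all features did. Of 48 translation factors 0 passed (median 0.0109), and of 31 aminoacyl-tRNA synthetases 0 (median -0.0593), of which all 31 had intervals within ±0.5. Ribosome biogenesis genes had a median of -0.0796, 18 of 19 of them below 0. RpL3 had a value of 0.053 (-0.18 to 0.28), RpL32 one of 0.12 (-0.18 to 0.42), and eEF2, the factor of ribosome translocation, one of -0.049 (-0.19 to 0.093). Proteasome genes had a median of 0.0827 with 0 of 32 below 0 and 0 that passed.

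Antioxidant, ATF4-linked, juvenile hormone and most insulin genes did not pass the test. Of 15 antioxidant genes and of 14 ATF4-linked genes 0 passed, and all had 95% intervals within 2-fold either way. Sod1, the cytosolic superoxide dismutase, had a log2 fold change of 0.12 (-0.15 to 0.39), Cat, catalase, one of 0.050 (-0.088 to 0.19), Trxr1 one of 0.018 (-0.15 to 0.18) and GstD1 one of 0.0079 (-0.23 to 0.24). GstE1 had a value of -0.054 (-0.32 to 0.22). JhI-21, a transporter that responds to juvenile hormone, had a value of -0.15 (-0.31 to 0.015), and of 12 tested juvenile hormone genes 0 passed. chico, the insulin receptor substrate, had a value of -0.098 (-0.36 to 0.16). None of the remaining lists had a member that passed, so that 6 of 49 lists had one.

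**Figure D5:**
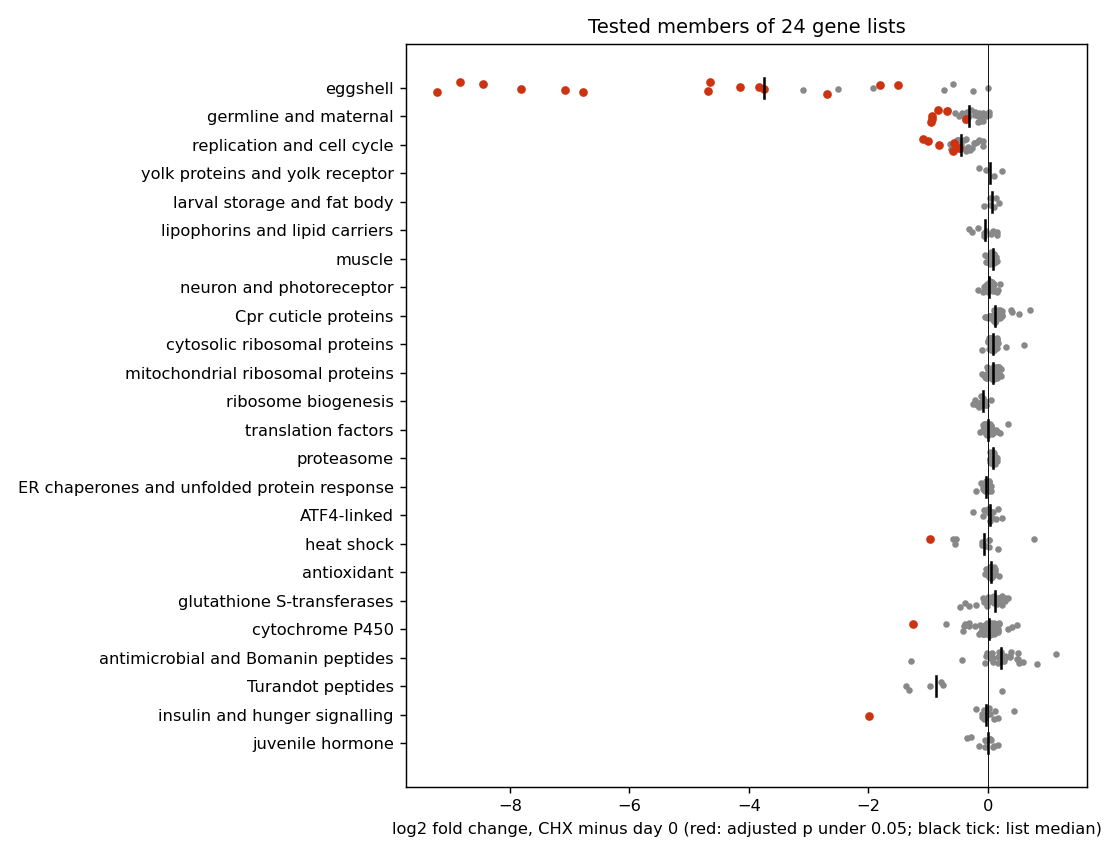
Log2 fold change of CHX against day 0 (horizontal axis) of the tested members of 24 gene lists, 1 point per gene, with genes that passed the test in red and the list median as a black tick. Eggshell genes spread down to -9.22, the cell cycle genes lie to the left of 0, the germline list has its median at -0.308, the Turandot peptides at -0.872 and the antimicrobial peptides at 0.223, and the medians of the other lists lie between -0.0796 and 0.129.

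No immune or stress peptide of the lists passed the test in edgeR. Of 6 tested Turandot genes, humoral peptides induced by stress, 0 passed, with a median log2 fold change of -0.872. TotA was at 71.0, 208 and 237 CPM (lowest, median, highest) at day 0 and at 56.1, 86.4 and 230 CPM with CHX (-0.76, 95% interval -1.34 to -0.17, edgeR adjusted p = 0.488). TotC was at 10.8, 45.4 and 59.1 CPM at day 0 and at 6.88, 9.39 and 58.8 CPM with CHX (-1.32, adjusted p = 0.453). In both genes day 0 replicate 2 was the lowest of its group and CHX replicate 5 the highest. Without CHX replicate 5 and day 0 replicate 6, TotC had a value of -1.86 (adjusted p = 0.0455). Of 29 tested antimicrobial and Bomanin peptides 0 passed (median 0.223), and BomS2 had a value of 0.22 (0.021 to 0.42) and BomS3 one of 0.19 (-0.072 to 0.45). BomBc3, a Bomanin gene named after its values were seen, had a log2 fold change of 0.40 (edgeR adjusted p = 0.129) and was higher with CHX in DESeq2 (0.41, adjusted p = 0.0181).

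On the higher side no feature passed the test in edgeR. The groups did not overlap for 5 features (0.045%) higher with CHX, against 106 (0.953%) lower. The 5 were psh, CG33093, CG34115, comm and CG11350, chosen after their values were seen. psh, persephone, a serine protease upstream of Toll, was at 16.9, 18.2 and 19.6 CPM (lowest, median, highest) at day 0 and at 20.1, 22.4 and 23.3 CPM with CHX. Its log2 fold change was 0.28 (SE 0.066), which did not pass in edgeR (adjusted p = 0.0971) and passed in DESeq2 (adjusted p = 0.00422). CG33093 had a value of 0.23 (edgeR adjusted p = 0.201) and passed in DESeq2 as well (adjusted p = 0.0431). CG11350 had the largest value of the 5, 0.88 (adjusted p = 0.455), at a mean of 0.309 CPM at day 0 and 0.575 CPM with CHX. Its value was 1.39 in the hyphen series and 0.36 in the other. CG34115 had a value of 0.68 (adjusted p = 0.395), at 0.550 and 0.884 CPM, and comm one of 0.28 (adjusted p = 0.396). The values of CG11350 and CG34115 lay in the range of the germline and cell cycle genes that passed on the lower side.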

How the data were processed

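RNA of whole w1118 flies was read in 18 libraries, and the 6 of day 0 were compared with the 6 of day 2 on 1 µM CHX, with groups, replicate numbers and name series taken from the labels. The table deposited by the authors holds raw counts per feature, not normalized, and 0 of its sample columns were left unused. As tools and build, the submitters' processing notes list STAR 2.7.10a, HTSeq 0.12.3, bcl2fastq 2.18.0.12 and BDGP6. Strand and multi-mapping settings were not stated, so reads of overlapping genes cannot always be told apart. Reads without an assigned feature, 8.46% to 11.6% of each column, entered neither library sizes nor tests. Symbols and positions are from the Ensembl annotation of BDGP6.54.

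Robust quasi-likelihood models were fitted with edgeR 4.0.16 in R 4.3.3, with TMM factors and a term for the name series, to the 11122 of 23932 features that filterByExpr kept. Benjamini-Hochberg adjustment covered all of them, with a threshold of 0.05. The SE was taken as the size of the log2 fold change divided by the root of the F statistic. Vehicle levels use the same scaling reference. Principal components, the replicate numbers and chi-square values of library pairs were checked, and the fit was tested on simulated data. The gene lists, the comparison and the alternatives were chosen with earlier results of these data known. Genes named are the 15 lowest and highest among those called with at least 10 CPM and no overlap. To these were added, from each list, up to 4 called members ranked by size of change or else the 2 most abundant, and the genes the study names, as far as they are described. Alternatives were other factors, DESeq2 1.42.0, voom of limma 3.58.1, other filters, all 18 libraries, no series term, single series, a replicate block, no 20 most abundant genes and leaving out each library. Leaving out day 0 replicate 6 and CHX replicate 5 together was chosen after seeing the data. Promoter motifs were not analysed here. Python 3.11.15 and matplotlib 3.10.9 drew the figures.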

Additional observations from a re-analysis of the deposited data

Results flagged for a closer look

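In each group of 6 libraries, the highest or the lowest library was picked out when its gap to the nearest other library, as a share of the whole range, was above the 95% critical value of Dixon's test. Over 214 such groups, for the genes, families and shares given above, 33 libraries were picked out, where chance gives about 1 in 20 groups. The genes share libraries, so these are not independent.

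Day 0 replicate 6 was the highest library in 16 of these groups. Among eggshell genes it held 59.9 CPM of Cp15 (27.5 to 35.7 in the other 5 day 0 libraries), 13.6 of Cp16 (6.86 to 9.24), 20.7 of Cp18 (9.92 to 13.3), 35.8 of Cp36 (18.8 to 23.5) and 4.86 of yellow-g2 (1.35 to 2.40). Its chorion sum was 212 CPM (107 to 139) and its eggshell sum 423 CPM (240.0 to 287.5). It also held 1.26 CPM of CG31661 (0.422 to 0.675), 8.33 of Fad2 (3.12 to 3.55) and 3.21 of Muc12Ea (1.21 to 1.86). Among germline and cell cycle genes it held 21.4 CPM of CycB3 (12.7 to 15.7), 16.1 of nanos (8.91 to 11.2), 13.5 of Orc1 (8.58 to 9.68), 22.4 of CycE (14.2 to 16.3), 11.4 of fzy (8.38 to 9.48) and 23.8 of Mcm5 (19.2 to 20.6). Without this library the log2 fold change was -8.64 for Cp15, -0.82 for CycB3, -0.96 for Orc1 and -0.69 for CycE.

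CHX replicate 5 was the highest CHX library for 15.02 CPM of Vm26Aa (0.350 to 0.837 in the others), 24.1 of Vm26Ab (0.377 to 2.20), 19.99 of Vm34Ca (0 to 0.395), 11.0 of Incenp (8.44 to 9.34), 58.8 of TotC (6.88 to 22.4) and 2602 of Yp3 (731 to 1411). Its vitelline membrane sum was 64.0 CPM (2.46 to 4.80).

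CHX replicate 1 was the highest CHX library for 1.13 CPM of Cp18 (0.293 to 0.559), 0.272 of Femcoat (0.0329 to 0.0837), 0.0907 of Muc12Ea (0 to 0.0329), 22390 of Mlc2 (18470 to 19150) and 6.85 of comm (5.53 to 5.95). CHX replicate 2 held the single count of Vm32E, 0.0251 CPM. Day 0 replicate 4 was the highest for 532 CPM of Cat (456 to 469) and 14.4 of GstE1 (9.26 to 10.9). Day 0 replicate 1 was the highest for 13.8 CPM of CG33093 (12.6 to 13.0) and for the testis list, at 25.9 CPM (5.39 to 6.67).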

How the results depend on the processing

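Of 11122 features 81 were called, all lower with CHX. DESeq2 called 131, 124 lower and 7 higher, and all 81 were among them, with 12 adjusted p left as NA. A filter of at least 10 counts in each library called 38, all among the 81; this filter removes genes that are near 0 with CHX, and 2 eggshell genes were left among its calls. The hyphen series alone called 26 and the series without a hyphen 33, with 3 libraries per group, of which 23 and 32 were among the 81. A log2 fold change beyond 1 as a further condition left 47. Leaving out each library in turn gave 58 to 90 features, with 58 to 90 lower and 0 to 1 higher. With RLE factors 76 were called, with upper quartile factors 77, with library sizes only 97, with voom 83, with no filter beyond 1 count 93, with all 18 libraries 61, with no series term 63, without the 20 most abundant genes 79 and without both libraries that stood apart 69, all lower. Library sizes only moved the median of all features to -0.0539. The difference between name series was 0 features under each alternative run for it. No called fold change changed sign under any alternative, while values near 0 that were not called did (Jon65Aiii -0.0060 and, with no series term, 0.060). The germline and maternal list went from 6 members lower to 2 with no series term.

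The replicate numbers did not pair the libraries: in their deviations from the means of group and series, same-numbered libraries correlated from -0.539 to 0.656, with 3 of 6 pairs above 0.1, and 1 of 6 CHX libraries correlated best with its own number. In deviations from the group means alone, which also hold the difference between series, they correlated from -0.11 to 0.674, with 5 of 6 pairs above 0.1, and 3 of 6 correlated best with their own number. With the replicate block 51 features were called, 50 of them among the 81. Depth limits the genes near 0 with CHX, where single libraries held 0 to a few counts.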
